A study of Mus musculus with 8 samples.

Results

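The genes described here are 32 members of the endoplasmic reticulum (ER) stress response, also called the unfolded protein response, measured in NS5 cells, a mouse neural stem cell line. They were taken from the probe sets annotated with exactly 1 gene symbol, with the brightest probe set (highest mean log2 signal over all arrays) standing for each gene. All 32 were found among 18193 genes, and all 32 lay above the signal filter, so that none was left out of the tests among the 10916 genes tested. By role they were 15 chaperones and folding enzymes, 5 genes of ER-associated degradation, 4 stress sensors and transcription factors, and 8 genes of the Atf4 branch. RNA was hybridized to 8 Affymetrix arrays, 2 for each of 4 groups. Cells received FGF2 or TGF-beta1, each alone (groups FGF2 and TGF-beta1) or with ethanol (groups Ethanol and FGF2, and Ethanol plus TGF-beta1, labelled Ethanol and TGF-beta1). Per the labels the cells are of brain at E11.5. Per the submitters' design text, cells of all groups spent 24 h with EGF and FGF2 and 4 h without factors before the 48 h treatment, with each factor at 10 ng per ul as written there and ethanol at 400 mg/dl. The labels do not say whether the arrays of a group came from separate cultures, so every p-value measures only the spread between these samples. In bulk RNA a smaller number of cells of a type and less RNA per cell cannot be told apart.

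Proteins that enter the secretory pathway fold in the ER with the help of chaperones, of which Hspa5 (BiP) is the most abundant. When unfolded proteins accumulate, 3 membrane sensors respond. Ern1 (IRE1) splices the messenger RNA of the transcription factor Xbp1, Atf6 is cut to release a transcription factor, and Eif2ak3 (PERK) phosphorylates the initiation factor eIF2alpha, which lowers general translation while raising that of Atf4. Spliced Xbp1 and cleaved Atf6 act on genes of chaperones and of the machinery that returns misfolded proteins to the cytosol for degradation. Atf4 acts on genes of amino acid supply and on Ddit3 (CHOP), Trib3 and Chac1, and it also responds to amino acid shortage and other stresses that do not arise in the ER. The arrays measure transcript levels, not splicing of Xbp1, cleavage of Atf6 or phosphorylation.

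The neural stem markers fitted the labelled cell type, with 10 of 10 measured genes above the filter, whereas 0 of 5 microglial and 0 of 5 endothelial markers were. Of the neuron markers 4 of 6 were above it, and their summed signal ran from 5494 to 11492 without ethanol and from 8988 to 13724 with it, most of it Map2. All 4 that were tested lay above 0 in the ethanol average, with a median log2 fold change of 1.26, larger than that of the members, and of 1.72 within TGF-beta1. There Dcx, named after its value was seen, rose by limma (2.70 ± 0.52, adjusted p = 0.048), and without the doubted arrays it had 2.08 (adjusted p = 0.378). Rbfox3 and Stmn2, the neuron markers below the filter, had signals of at most 69.2 and 50.5. Of the astrocyte markers 5 of 5 were above it, summing to between 19892 and 33733 without ethanol and between 32195 and 41544 with it, and of the oligodendrocyte markers 1 of 4 was. Fn1 (fibronectin), which marks the TGF-beta1 response, went against the labels on 2 arrays: replicate 1 of Ethanol and FGF2 had 6828 where replicate 2 had 116, and replicate 1 of Ethanol and TGF-beta1 had 124 where replicate 2 had 8226. Every array stays in its labelled group, and results are also given without these 2 doubted arrays. The 3'/5' signal ratio of the Gapdh control, which rises as RNA degrades, was 3.33 and 3.48 in Ethanol and FGF2 and between 1.64 and 2.20 on the other 6 arrays. The ratio of the actin control did not set that group apart. It was 2.35 and 3.61 in FGF2 and 3.57 and 4.20 in Ethanol and FGF2 (replicates 1 and 2). In TGF-beta1 it was 2.36 and 3.03, and in Ethanol and TGF-beta1 2.78 and 3.07. Genes of G2/M and mitosis were lower with ethanol: 18 of 19 tested fell in the average over both growth factors, with a median log2 fold change of -3.29. Without the doubted arrays 0 of all genes passed in that average. The part of these differences between arrays in the values below was not tested.

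Promoter sequences from RefSeq (GRCm38.p6, 250 bases before to 50 after each gene's start) were held for 28 of the 32 members. They are shown because the branches of the response differ in the letters their promoters carry. The ER stress response element (ERSE, CCAAT, then any 9 bases, then CCACG, searched on both strands) stood in 8 of 28 member promoters (28.6%) and in 0.119% of all 32851 promoters. Of the 8, 7 belonged to chaperones and folding enzymes and 1 to Syvn1, and none to the sensors or the Atf4 branch. A match is only a match of letters and was not tested for binding. With 12 bases on each side and the element in capitals, the windows read on the strand of the gene as follows, where CGTGG before ATTGG is the element on the opposite strand.
Hspa5 (chr2:34772013-34772055, plus strand): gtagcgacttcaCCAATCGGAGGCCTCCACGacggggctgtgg
Hsp90b1 (chr10:86705626-86705668, minus strand): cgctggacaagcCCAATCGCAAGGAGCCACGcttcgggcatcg
Hsp90b1 (chr10:86705521-86705563, minus strand): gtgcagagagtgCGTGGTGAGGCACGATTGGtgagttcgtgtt
Calr (chr8:84847063-84847105, minus strand): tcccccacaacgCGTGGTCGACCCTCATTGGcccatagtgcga
Dnajc3 (chr14:118937815-118937857, plus strand): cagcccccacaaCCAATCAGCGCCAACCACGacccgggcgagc
Pdia6 (chr12:17266479-17266521, plus strand): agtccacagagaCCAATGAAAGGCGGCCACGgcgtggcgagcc
Creld2 (chr15:88819508-88819550, plus strand): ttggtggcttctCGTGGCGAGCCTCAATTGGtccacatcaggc
Syvn1 (chr19:6046520-6046562, plus strand): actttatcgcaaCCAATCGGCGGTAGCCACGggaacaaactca

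Canx held the same element. The related ERSE-II (ATTGG, any base, CCACG) stood in 2 member promoters, Herpud1 and Dnajb11, and in 0.0365% of all. The Atf4 and C/EBP element (CARE core, TGATG, any base, AA, both strands) stood in 5 of 28 (17.9%) against 3.97% of all promoters: 4 of the 8 Atf4 branch genes and Herpud1, and 0 of 13 chaperones. The UPRE core (TGACGTGG) was in 0 of 28 and in 0.676% of all. None of these motifs overlapped another. The CARE cores upstream of the start are shown in capitals because each of their genes was highest on the same array, Ethanol and FGF2 replicate 1. TTGCATCA is the core on the opposite strand.
Atf3 (chr1:191183424-191183455, minus strand): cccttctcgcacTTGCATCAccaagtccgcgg
Chac1 (chr2:119351037-119351068, plus strand): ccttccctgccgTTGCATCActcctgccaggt
Asns (chr6:7693213-7693244, minus strand): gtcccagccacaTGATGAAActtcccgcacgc
Herpud1 (chr8:94386305-94386336, plus strand): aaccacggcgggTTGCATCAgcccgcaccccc
Herpud1, ERSE-II (chr8:94386365-94386399, plus strand): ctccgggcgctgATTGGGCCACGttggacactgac

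The first question was whether ethanol altered the ER stress genes. Transcripts of most members had somewhat higher signals with ethanol, but none passed the test. In the average over both growth factors 31 of 32 members had a log2 fold change above 0, beside 54.0% of all genes tested, and the member median was 0.32 beside 0.03 for all genes. By limma 0 of 32 passed an adjusted p of 0.05, where 1.98% of all genes did (20 rises and 196 falls). An unadjusted p under 0.05 was reached by 5 of 32 (10.8% of all genes): Ern1, Ppp1r15a, Xbp1, Dnajb9 and Herpud1. The smallest adjusted p of a member was 0.146 (Ern1). By the probe sets used, no member had all 4 ethanol arrays above all 4 arrays without ethanol, where 2.99% of all genes did. On a dimmer probe set above the filter, Hsp90b1, Calr, Dnajc3, Ddit3 and Sesn2 did. These were seen afterwards, and no share over all dimmer probe sets was taken. Without the 2 doubted arrays 28 of 32 members lay above 0, with a median of 0.26, and without FGF2 replicate 1 alone 23 of 32 did, with a median of 0.19.

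**Figure D1:**
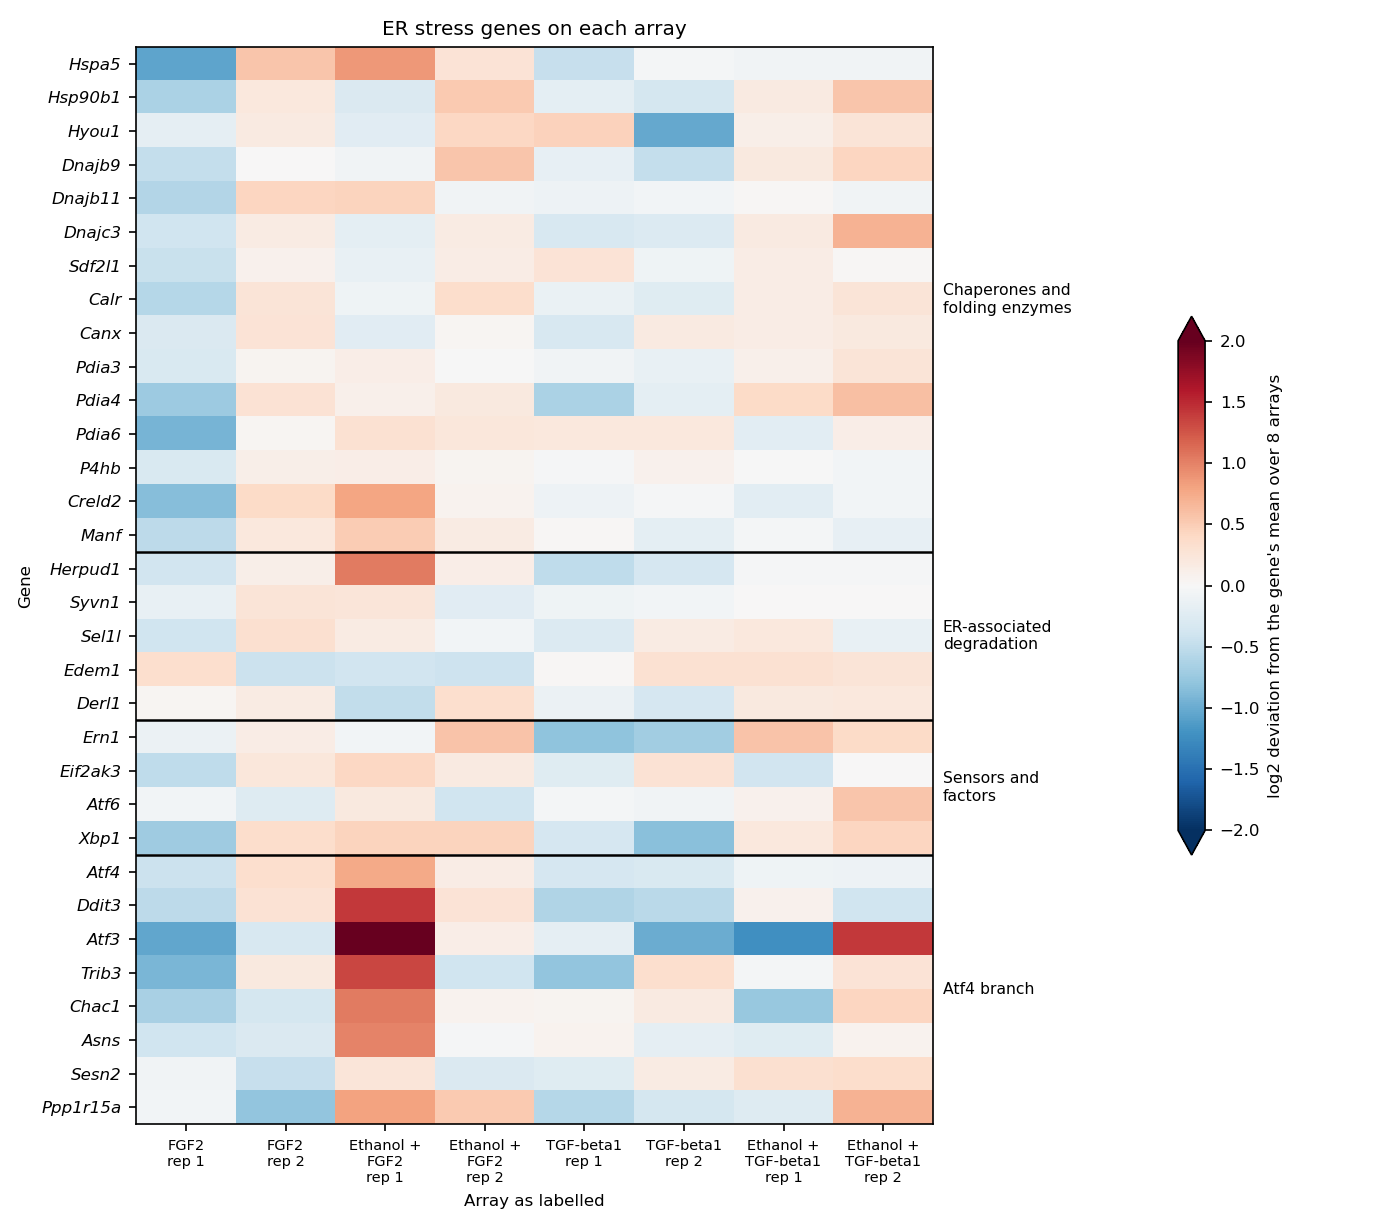
Deviation of each member's log2(signal + constant) from its mean over the 8 arrays, with genes in rows by role and arrays in columns as labelled. The chaperones are mostly blue on FGF2 replicate 1, which was the lowest array for 12 of 15, and the Atf4 branch is red on Ethanol and FGF2 replicate 1, the highest array for 7 of 8.

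Within FGF2, 28 of 32 members lay above 0 with a median of 0.35, and within TGF-beta1 24 of 32 did with a median of 0.32, where the medians of all genes were 0.05 and -0.01. Without the doubted arrays these were 25 of 32 (median 0.32) and 26 of 32 (median 0.34). By limma 0 of 32 members passed in either (0% of all genes within FGF2 and 1.19%, 8 rises and 122 falls, within TGF-beta1). An unadjusted p under 0.05 was reached by 2 and 3 members (8.31% and 9.48% of all genes). Both ethanol arrays lay above both FGF2 arrays for 7 of 32 members (19.2% of all genes) and below for 0 (12.8%). Both lay above both TGF-beta1 arrays for 16 of 32 (22.2% of all genes) and below for 1 (25.7%). The difference between the growth factors in the ethanol effect, the interaction, passed for 0 of 32 members (0% of all genes, smallest adjusted p of a member 0.831), and 1 had an unadjusted p under 0.05 (Ern1).

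The FGF2 arrays themselves differed. FGF2 replicate 2 was above replicate 1 for 28 of 32 members by a median of 0.56 log2 units, where 49.0% of all genes were higher on replicate 2. The median signal over all probe sets was 50.7 on replicate 1 and 86.5 on replicate 2, and in TGF-beta1 it was 50.6 and 80.7, where replicate 2 was above replicate 1 by a member median of 0.05. The member median for ethanol within FGF2 moved from 0.35 to 0.056 without FGF2 replicate 1 and to 0.74 without FGF2 replicate 2. The median within TGF-beta1 stayed between 0.19 and 0.34 with any 1 array left out.

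**Figure D2:**
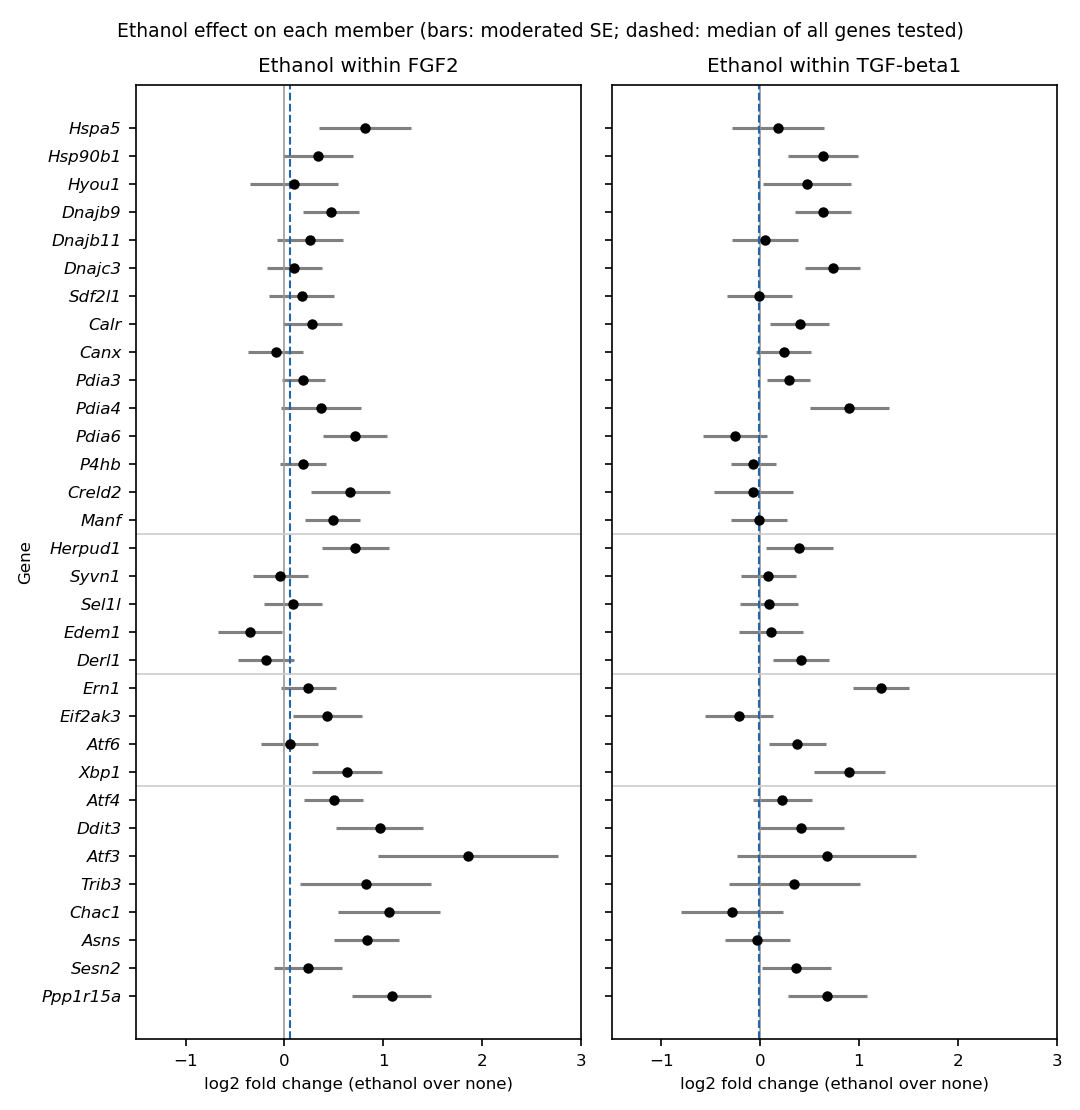
Log2 fold change of ethanol over none for each member within FGF2 (left) and within TGF-beta1 (right), with bars of 1 moderated SE and a dashed line at the median of all genes tested. The Atf4 branch lies farthest right within FGF2 (median 0.90), and Ern1 has the highest value within TGF-beta1 (1.23).

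Among the chaperones and folding enzymes, all 15 lay above 0 in the ethanol average, with a median of 0.28, and none passed the test (smallest adjusted p 0.339, 1 at an unadjusted p under 0.05). Without the doubted arrays 14 of 15 lay above 0, with a median of 0.30, but without FGF2 replicate 1 only 9 of 15 did, with a median of 0.097. Hspa5, the main Hsp70 chaperone of the ER, lies on chromosome 2 from 34772090 to 34776529 (GRCm38.p6), and the element shown above starts 65 bases before its start. Its signal was 4531 and 13980 in FGF2, 17253 and 11448 in Ethanol and FGF2, 6852 and 9264 in TGF-beta1, and 9073 and 9055 in Ethanol and TGF-beta1 (replicates 1 and 2). Only Ethanol and FGF2 replicate 1 lay outside the range that the FGF2 arrays spanned, and the log2 fold change of the average was 0.50 ± 0.33 (SE, adjusted p = 0.66), and 0.35 without the doubted arrays. The value within FGF2, 0.82 ± 0.47, was higher than that within TGF-beta1, 0.19 ± 0.47, but was 0.01 without FGF2 replicate 1. Another Hspa5 probe set above the filter had the reverse order, 0.49 within FGF2 and 0.68 within TGF-beta1. On it the TGF-beta1 arrays had 5742 and 5107 and those with ethanol 8288 and 9163. No array there lay outside the range of the FGF2 arrays (4418 and 11256).

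Dnajb9 (ERdj4), an Hsp40 cochaperone of Hspa5, had the largest test statistic of the chaperones. Its signal was 2007 and 2800 in FGF2 and 2640 and 4088 with ethanol added, and 2486 and 1998 in TGF-beta1 and 3204 and 3767 with ethanol added. The ethanol arrays were above their controls in TGF-beta1 and overlapped them in FGF2, and the average was 0.55 ± 0.20 (adjusted p = 0.339) and 0.77 without the doubted arrays. Pdia4, a disulfide isomerase, gave 97.3 and 222 in FGF2, 193 and 206 with ethanol, 106 and 153 in TGF-beta1 and 238 and 281 with ethanol. Both ethanol arrays of TGF-beta1 were above its controls, with 0.90 ± 0.40 there (adjusted p = 0.53, and 1.01 without the doubted arrays), while in FGF2 the ethanol arrays lay between the controls.

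Dnajc3 (p58IPK), a cochaperone that also restrains eIF2alpha kinases, gave 3064 and 4541 in FGF2, 3521 and 4549 with ethanol, 3253 and 3334 in TGF-beta1 and 4578 and 6600 with ethanol. The groups did not overlap in TGF-beta1, with 0.74 ± 0.28 (adjusted p = 0.437, and 1.00 without the doubted arrays), and were interleaved in FGF2, with 0.10 ± 0.28. This contrast varied over the dimmer Dnajc3 probe sets, all above the filter. They had 0.33, 0.72, 0.61 and -0.14 within FGF2. In the same order they had 0.34, -0.0002, 0.71 and 1.00 within TGF-beta1. Pdia6, a disulfide isomerase that binds Ern1, was the only member whose ethanol arrays both lay above the FGF2 arrays and both below the TGF-beta1 arrays: 440 and 876 in FGF2 and 1067 and 1006 with ethanol, but 999 and 997 in TGF-beta1 and 736 and 943 with ethanol. Its log2 fold changes were 0.72 ± 0.32 and -0.25 ± 0.32, with an interaction of -0.97 ± 0.46 (adjusted p = 0.831), and its dimmer second probe set had -0.51 and -0.54.

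The other 10 chaperones had averages from 0.06 (P4hb, the disulfide isomerase PDI) to 0.49 (Hsp90b1, the ER Hsp90, ± 0.25). Hsp90b1 was 2129 and 3857 in FGF2, 2729 and 4808 with ethanol, 2917 and 2599 in TGF-beta1 and 3765 and 4903 with ethanol. Its ethanol arrays were interleaved with the controls in FGF2 and above them in TGF-beta1, at 0.64 ± 0.35 there (adjusted p = 0.615, and 0.83 without the doubted arrays). On the dimmer Hsp90b1 probe set, also above the filter, they were above the controls in both growth factors. It had 1176 and 1557 in FGF2 and 2658 and 2190 with ethanol. Its log2 fold changes were 0.82 within FGF2 and 0.81 within TGF-beta1. The lectin chaperones Calr and Canx had 0.34 ± 0.21 and 0.07 ± 0.20, and of the 3 probe sets of Canx the other 2 had averages below 0. The other Calr probe sets, both above the filter, had averages of 0.52 and 0.56. Creld2 and Manf, secreted proteins released under ER stress, had 0.66 ± 0.40 and 0.49 ± 0.28 within FGF2 but -0.07 ± 0.40 and -0.01 ± 0.28 within TGF-beta1. Both were highest on Ethanol and FGF2 replicate 1 (1721 and 3596) and lowest on FGF2 replicate 1 (536 and 1753). Within FGF2 they had 0.30 and 0.32 without the doubted arrays and 0.045 and 0.12 without FGF2 replicate 1. On FGF2 replicate 1, 12 of the 15 chaperones had their lowest value, where 13.3% of all genes did. All 15 were higher on FGF2 replicate 2 than on replicate 1, by a median of 1.67-fold. Their ethanol median within FGF2 was 0.28, and -0.08 without FGF2 replicate 1.

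**Figure D3:**
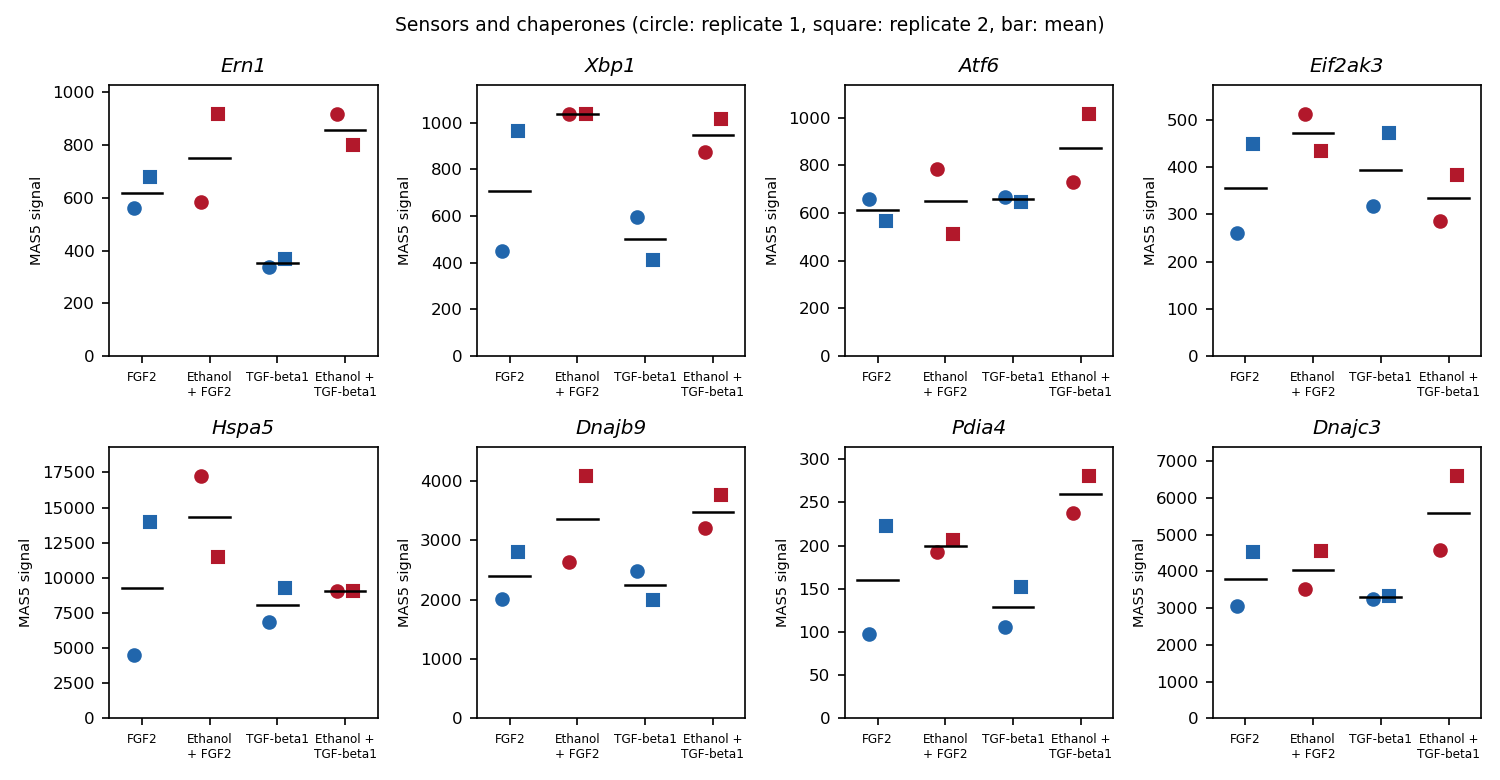
MAS5 signal on every array for the 4 sensors and factors and 4 chaperones, by labelled group, with a circle for replicate 1, a square for replicate 2 and a bar at the mean of 2. The Ern1 and Xbp1 signals are low on both TGF-beta1 arrays and high on both arrays of Ethanol and TGF-beta1, and the FGF2 points of Hspa5 lie far apart at 4531 and 13980.

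The 5 genes of ER-associated degradation varied little. The median of the ethanol average was 0.09, 4 of 5 lay above 0 and none passed (smallest adjusted p 0.442), and without the doubted arrays 2 of 5 lay above 0 with a median of -0.05. Herpud1, an ER membrane protein that gathers the degradation complex and that carried both ERSE-II and CARE letters, differed from the rest. Its signal was 401 and 576 in FGF2, 1106 and 584 with ethanol, 363 and 412 in TGF-beta1, and 517 and 518 with ethanol. Both ethanol arrays were above both controls in each growth factor, narrowly for Ethanol and FGF2 replicate 2, and the average was 0.56 ± 0.24 (adjusted p = 0.442) and 0.33 without the doubted arrays. On the other Herpud1 probe set FGF2 replicate 2 (417) was above Ethanol and FGF2 replicate 2 (410), and the average was 0.83.

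Derl1, a channel component for retrotranslocation, gave 3080 and 3352 in FGF2, 2110 and 3763 with ethanol, 2767 and 2374 in TGF-beta1 and 3410 and 3450 with ethanol. Its average of 0.11 ± 0.20 had no stable sign: 2 of its 4 probe sets were below 0. Edem1, a lectin that delivers misfolded glycoproteins, was the 1 member with an average below 0, -0.12 ± 0.23, from 367 and 208 in FGF2, 216 and 209 with ethanol, 294 and 361 in TGF-beta1 and 359 and 349 with ethanol. The ubiquitin ligase Syvn1 (HRD1) and its partner Sel1l had 0.02 ± 0.20 and 0.09 ± 0.21, and their signals ran from 392 to 555 and from 3027 to 4998 over all arrays, with the highest on FGF2 replicate 2.

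All 4 sensors and factors lay above 0 in the ethanol average, with a median of 0.48 (0.50 without the doubted arrays), and none passed. Ern1 and Xbp1 stood closest to the threshold. Ern1, the IRE1 kinase and ribonuclease (chromosome 11 from 106397620 to 106487796), gave 562 and 677 in FGF2, 585 and 919 with ethanol, 339 and 367 in TGF-beta1, and 916 and 799 with ethanol. Its ethanol arrays lay well above the TGF-beta1 arrays and overlapped those of FGF2. Within TGF-beta1 the log2 fold change was 1.23 ± 0.28 (adjusted p = 0.1, and 1.13 at an adjusted p of 0.342 without the doubted arrays), within FGF2 0.24 ± 0.28, and the interaction 0.98 ± 0.40 (adjusted p = 0.831). Without the doubted arrays Ern1 had 0.56 within FGF2 and an interaction of 0.57. The average was 0.73 ± 0.20 (adjusted p = 0.146) and 0.84 without the doubted arrays. The other 4 probe sets of Ern1 lay below the signal filter.

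Xbp1, the factor whose message Ern1 splices (chromosome 11 from 5520641 to 5525993), gave 452 and 964 in FGF2, 1037 and 1039 with ethanol, 594 and 410 in TGF-beta1, and 876 and 1018 with ethanol. With this probe set the ethanol arrays were above the controls in each growth factor, although FGF2 replicate 2 nearly reached them. On each of the other Xbp1 probe sets the groups overlapped in FGF2 and stayed apart in TGF-beta1. There FGF2 replicate 2 was above Ethanol and FGF2 replicate 1 (853 against 663, 681 against 642 and 649 against 470). The average was 0.77 ± 0.25 (adjusted p = 0.264), its 4 probe sets had averages between 0.57 and 0.77, and without the doubted arrays it was 0.82. Within FGF2 it was 0.63 ± 0.36, and 0.10 without FGF2 replicate 1. The neuron markers described above were also higher with ethanol within TGF-beta1, and their part in the Ern1 and Xbp1 values was not tested.

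Atf6 gave 659 and 566 in FGF2, 785 and 513 with ethanol, 667 and 648 in TGF-beta1 and 730 and 1017 with ethanol, with an average of 0.22 ± 0.20 (adjusted p = 0.795). Eif2ak3 gave 260 and 449 in FGF2, 513 and 433 with ethanol, 317 and 471 in TGF-beta1 and 285 and 383 with ethanol, with an average of 0.11 ± 0.24 (adjusted p = 0.921). For both, the groups with and without ethanol overlapped in FGF2, and for Eif2ak3 also in TGF-beta1. Within TGF-beta1, then, the groups were apart for Ern1, Xbp1 and, narrowly and only by the probe set used, Atf6. The other Atf6 probe sets, both above the filter, overlapped there, with log2 fold changes of -0.14 and 0.51. The first had 492 and 604 in TGF-beta1 and 514 and 474 with ethanol. The second had 95.9 and 201 in TGF-beta1 and 184 and 238 with ethanol.

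The Atf4 branch had the largest log2 fold changes of the 4 roles within FGF2, where all 8 genes lay above 0 with a median of 0.90, and none passed (smallest adjusted p 0.505). One of the doubted arrays, Ethanol and FGF2 replicate 1, carried much of this. It was the highest of the 8 for 7 of 8 genes, where it was the highest for 23.9% of all genes tested, and all 8 were higher there than on replicate 2 of the group. Without it 6 of 8 lay above 0 within FGF2, with a median of 0.36. In the average over both growth factors all 8 lay above 0 with and without it, with medians of 0.49 and 0.19, and with both doubted arrays left out the median was 0.26. These counts are for the probe set used for each gene. A dimmer Atf4 probe set above the filter had 2054 on Ethanol and FGF2 replicate 1 and 2906 on replicate 2. A dimmer Ddit3 probe set had 123 on that replicate 1 and 193 on Ethanol and TGF-beta1 replicate 2. The dimmer Asns probe set was again highest on Ethanol and FGF2 replicate 1 (3479).

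Atf3, a stress-induced repressor and activator of the same family, gave 30.8 and 66.1 in FGF2, 498 and 99 in Ethanol and FGF2, 75.5 and 32.4 in TGF-beta1, and 23.9 and 273 in Ethanol and TGF-beta1. It was high on 1 array of each ethanol group, the ethanol arrays on which Fn1 was high (6828 and 8226), and its average of 1.26 ± 0.64 did not pass (adjusted p = 0.535). Ddit3 (CHOP), a factor linked to cell death under lasting stress, gave 184 and 338 in FGF2, 766 and 336 with ethanol, 172 and 181 in TGF-beta1 and 293 and 201 with ethanol. It was 3.81 times the median of the other 7 arrays on Ethanol and FGF2 replicate 1, and its average of 0.69 ± 0.31 (adjusted p = 0.476) was 0.28 without the doubted arrays. Ddit3 had 0.96 within FGF2 and 0.41 within TGF-beta1, but 0.47 and 0.91 on its dimmer probe set, also above the filter. That probe set had 76.8 and 79.7 in FGF2 and 123 and 111 with ethanol. In TGF-beta1 it had 58.8 and 90.4, and 128 and 193 with ethanol. Every ethanol array there was above every control, and the average was again 0.69.

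**Figure D4:**
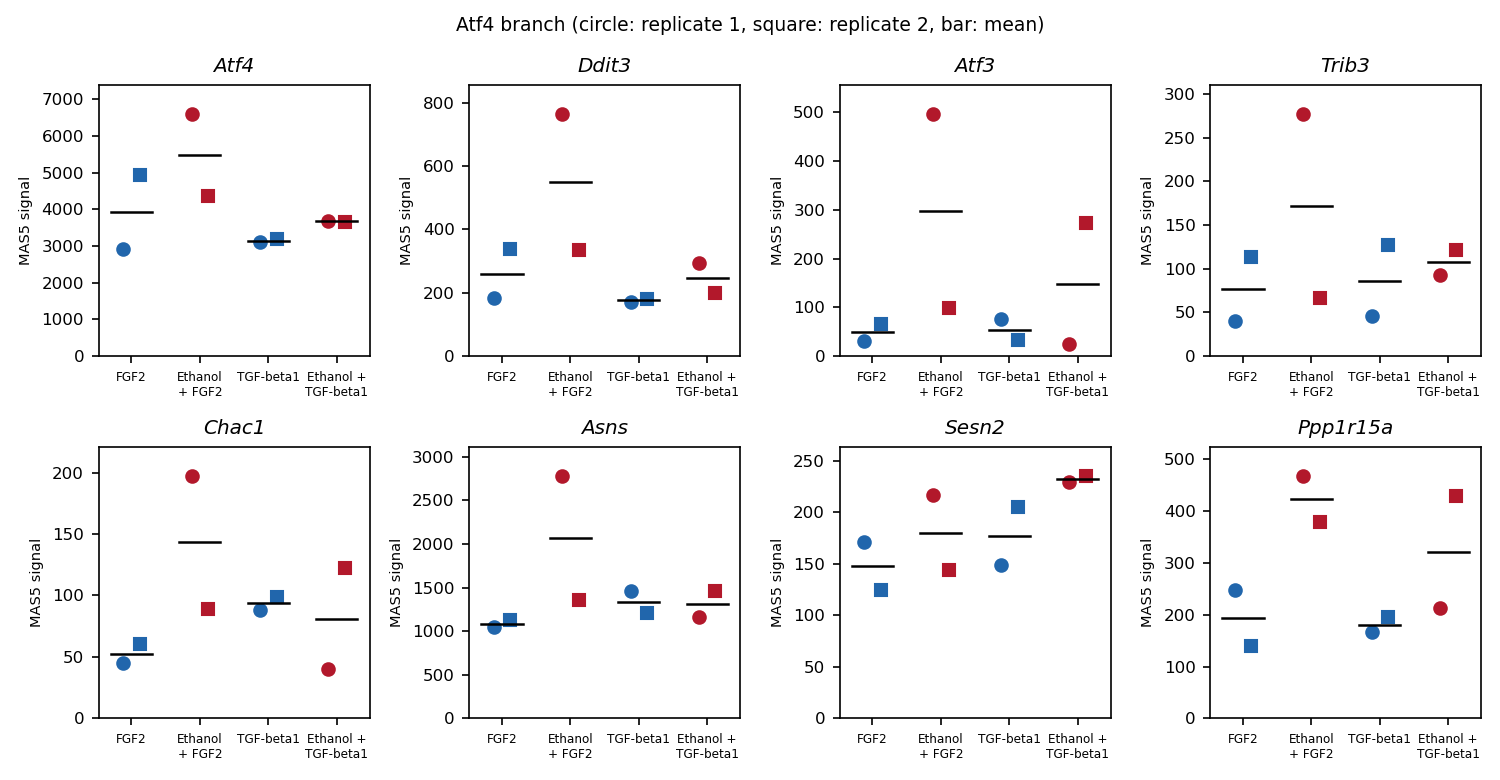
MAS5 signal on every array for the 8 Atf4 branch genes by labelled group, with a circle for replicate 1, a square for replicate 2 and a bar at the mean of 2. The circle of Ethanol and FGF2 is the highest point for every gene except Sesn2, for instance 766 for Ddit3 and 2782 for Asns.

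Atf4 itself (chromosome 15 from 80255184 to 80257545) gave 2919 and 4928 in FGF2, 6611 and 4363 with ethanol, 3105 and 3184 in TGF-beta1, and 3690 and 3666 with ethanol. The TGF-beta1 pairs were tight and did not overlap, with 0.22 ± 0.30 (adjusted p = 0.873), and the average was 0.36 ± 0.21 (adjusted p = 0.603), 0.21 without the doubted arrays and 0.17 without FGF2 replicate 1. Within FGF2 the value was 0.50 ± 0.30. A dimmer Atf4 probe set above the filter had the reverse order, 0.37 within FGF2 and 0.93 within TGF-beta1, with an average of 0.65. Ppp1r15a (GADD34) directs the phosphatase that reverses eIF2alpha phosphorylation. By the probe sets used, it differed from the other targets in that both ethanol arrays of each growth factor lay above their controls. Its signal was 247 and 139 in FGF2, 468 and 380 with ethanol, 166 and 196 in TGF-beta1, and 212 and 429 with ethanol. The average was 0.88 ± 0.28 (adjusted p = 0.247) and 1.05 without the doubted arrays.

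Chac1, an enzyme that degrades glutathione, gave 44.7 and 60.5 in FGF2, 197 and 89.2 with ethanol, 87.8 and 99.1 in TGF-beta1 and 39.9 and 122 with ethanol. Asns (asparagine synthetase) gave 1044 and 1124 in FGF2, 2782 and 1357 with ethanol, 1456 and 1212 in TGF-beta1 and 1167 and 1458 with ethanol. For both genes the ethanol arrays were above the FGF2 arrays and surrounded the TGF-beta1 arrays, at 1.06 ± 0.52 and 0.83 ± 0.33 within FGF2 and -0.28 ± 0.52 and -0.03 ± 0.33 within TGF-beta1. Without the doubted arrays Chac1 and Asns had 0.57 and 0.32 within FGF2 and 0.32 and 0.13 within TGF-beta1, so the negative values there turned positive. Trib3, a pseudokinase that restrains Akt and Atf4, ran from 39.9 to 277, again highest on Ethanol and FGF2 replicate 1, with an average of 0.58 ± 0.47. Without that array its average was 0.15, and within FGF2 it had -0.05 in place of 0.82. Sesn2, a leucine sensor upstream of mTORC1, was the 1 gene of the branch highest elsewhere, at 235 on Ethanol and TGF-beta1 replicate 2, and had 0.30 ± 0.25. Its dimmer probe set, also above the filter, had an average of 0.83, with 1.18 within FGF2 and 0.48 within TGF-beta1. On it, as for Ppp1r15a and the dimmer Ddit3 probe set, both ethanol arrays of each growth factor lay above their controls. By the probe set used, all 5 members with a CARE core in the promoter were highest on Ethanol and FGF2 replicate 1. Of the 23 other members with a promoter entry 9 were, beside 23.9% of all genes. The role of the genes cannot be told apart from the motif in this count: of the 4 Atf4 branch genes without a CARE core 3 were highest there too, as were both ERSE-II members (Herpud1, which also has a CARE core, and Dnajb11) and 3 of the 8 ERSE members.

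Other genes of the pathway, from lists written for this description, gave 0 genes past the test in the ethanol average. Of the other Atf4 targets 26 of 26 were tested and 16 lay above 0, with a median of 0.13 (0.44 within FGF2, -0.17 within TGF-beta1). As in the Atf4 branch, Ethanol and FGF2 replicate 1 was their highest array, for 16 of 26, beside 23.9% of all genes. The leading genes were the lipoprotein receptor Vldlr (1.04 ± 0.29, adjusted p = 0.167) and the amino acid transporter subunits Slc3a2 (0.79 ± 0.27) and Slc7a5 (0.79 ± 0.30), with 0.87, 0.77 and 0.76 without the doubted arrays. Slc3a2 gave 1507 and 1740 in FGF2, 5757 and 2810 with ethanol, 2475 and 2484 in TGF-beta1 and 2156 and 4217 with ethanol, high on the arrays on which Atf3 was high.

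The genes of ER entry and glycosylation had 8 of 19 above 0 and a median of -0.04, with Rpn2, an oligosaccharyltransferase subunit, at -0.54 ± 0.21, Spcs3 at -0.31 ± 0.17 and Srp72 at 0.25 ± 0.15. The other ER folding factors had 14 of 20 above 0 and a median of 0.03, led by the oxidase Ero1a (0.41 ± 0.17), Pdia5 (-0.66 ± 0.29) and Dnajc10 (-0.42 ± 0.19). The other ER-associated degradation genes had 11 of 16 above 0 and 0.08, with Erlec1 at 0.36 ± 0.15 and Os9 at 0.38 ± 0.17, both lectins, and Selenok at 0.31 ± 0.21. The other regulators had 10 of 13 above 0 and 0.07, with Wfs1 at 0.37 ± 0.20, Atf6b at 0.33 ± 0.23 and Traf2 at -0.41 ± 0.30. Cytosolic and mitochondrial heat shock genes, which answer unfolded proteins outside the ER, had 8 of 12 above 0 and a median of 0.19, with Hspa1b at 0.86 ± 0.35, Dnajb1 at 0.35 ± 0.15 and Hspd1 at -0.41 ± 0.18. By limma the adjusted p of these 18 named genes lay between 0.167 and 0.715.

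The second question was whether the growth factor set the level of these genes without ethanol. Members lay on both sides of 0, with 15 of 32 above it and a median of -0.01 in TGF-beta1 against FGF2, where all genes had 0.02. By limma 0 of 32 passed (0% of all genes), and 1 of 32 had an unadjusted p under 0.05 (4.95% of all genes). Both TGF-beta1 arrays were above both FGF2 arrays for 3 of 32 members (20.4% of all genes) and below for 3 (15.8%). The 4 members with the largest statistics were Ern1 (-0.77 ± 0.28, adjusted p = 0.981), Pdia6 (0.66 ± 0.32), Chac1 (0.62 ± 0.52) and Derl1 (-0.32 ± 0.28). For Ern1 the FGF2 arrays averaged 620 ± 81.3 (SD, n = 2) and those of TGF-beta1 353 ± 19.8 (SD, n = 2), with no overlap. This comparison shares the TGF-beta1 arrays with that of ethanol within TGF-beta1, so the low Ern1 signal of those arrays enters both.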

How the data were processed

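The authors deposited a linear intensity for each probe set, array by array, and the submitters' processing notes name MAS5 and GCOS, with versions not given in the sources used here. The 2% trimmed mean was 500.003 on each array, so the arrays had been scaled to 1 target. Of 45101 probe sets, 34945 had 1 gene symbol, 932 several and 9160 none, beside 64 controls. The brightest of a gene's probe sets was used. Values were taken as log2(signal + 23.7), where 23.7 is the 25th percentile of the deposited intensities, and 10916 genes passed a filter on the mean set at its 40th percentile (log2 6.40). The test was limma 3.58.1 (R 4.3.3) across all genes, with 4 group means over 8 arrays, 4 residual degrees of freedom, a trended prior and Benjamini-Hochberg adjustment at 0.05. SE are moderated and SD are of signals. The number of arrays limits the precision. The fit was tested on simulated data. Positions come from the RefSeq gene table (GRCm38.p6), in which all 32 members matched. Members, lists and tests were chosen with earlier results of these data known. The genes given on every array were the 3 largest statistics for the ethanol average in each role, the 4 largest for TGF-beta1 against FGF2, the sensors, Hspa5, Atf4 and Ddit3; values of further members, given where they show an array's pattern, and of Slc3a2 were chosen after they were seen. Alternatives were other constants, filters and normalizations, the mean of probe sets, an untrended prior, an additive model, the replicate number as a block, and arrays left out.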

Additional observations from a re-analysis of the deposited data

Results flagged for a closer look

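Pdia6 was picked out because both ethanol arrays lay above both FGF2 arrays while both lay below both TGF-beta1 arrays. The difference between the effects was -0.97 on the log2 scale, and by limma it did not pass (adjusted p = 0.831). Replicate 1 of Ethanol and TGF-beta1, 1 of the 2 doubted arrays, had the lowest Pdia6 signal of the TGF-beta1 groups (736), and without both doubted arrays the effects were 0.67 within FGF2 and -0.08 within TGF-beta1. Groups of 2 arrays are too small for a test of single outlying arrays.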

How the results depend on the processing

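No member passed the threshold in any of the 5 comparisons under any alternative, and the smallest adjusted p of a member by limma was 0.0555 (ethanol average, without FGF2 replicate 2). With 1 array left out in turn the member median ran from 0.19 to 0.47 in the ethanol average, from 0.056 (without FGF2 replicate 1) to 0.74 (without FGF2 replicate 2) within FGF2, from 0.19 to 0.34 within TGF-beta1, from -0.33 to 0.14 in the interaction, and from -0.36 (without FGF2 replicate 1) to 0.27 for TGF-beta1 against FGF2. Under the other alternatives these medians ran from 0.26 to 0.36, 0.28 to 0.43, 0.24 to 0.41, -0.096 to 0.10 and -0.094 to -0.0019. Of 17 named members 4 changed sign in the ethanol average, none of them past the test. With arrays left out, Derl1 ran from -0.092 (without Ethanol and FGF2 replicate 2) to 0.33, Edem1 from -0.31 to 0.072 (without FGF2 replicate 1), Pdia6 from -0.0085 (without FGF2 replicate 1) to 0.47, and Eif2ak3 from -0.072 (without FGF2 replicate 1; -0.023 without TGF-beta1 replicate 1) to 0.30. With the mean of probe sets, Derl1 was at -0.017 and Pdia6 at -0.15. The cause was not tested. Over all genes, the calls in the ethanol average numbered 216, with 119 under the stricter filter, 0 without both doubted arrays and 101 to 231 with 1 array left out (1177 had an unadjusted p under 0.05). Within TGF-beta1 they numbered 130, with 75 under the stricter filter, 85 with the mean of probe sets, 0 without both doubted arrays and 0 to 160 with 1 array left out. Within FGF2 they numbered 0 (907 at an unadjusted p under 0.05), with 22 without a filter, 3 under the stricter filter, 55 under median centring, 49 under quantile normalization and up to 77 with 1 array left out. For TGF-beta1 against FGF2 they numbered 0 (540 at an unadjusted p under 0.05), and 5 without both doubted arrays. With the replicate number as a block there were 178, 0 and 0 calls in these comparisons, and under this replicate block 0 members passed in any comparison. Deviations of same-numbered arrays correlated at 0.47 between FGF2 and TGF-beta1, whose same-numbered arrays also had like median signals (50.7 and 50.6, 86.5 and 80.7) and Gapdh 3'/5' ratios (1.64 and 1.70, 2.20 and 2.20). For the other 5 pairs of groups the correlation ran from -0.44 to 0.04, and the labels give no shared origin, so the numbers were not taken to pair the samples of all groups. For TGF-beta1 against FGF2 the smallest adjusted p of a member was 0.981 without and 0.985 with the replicate block. The constant of 23.7 lies near the lowest signals of Atf3, Trib3 and Chac1, which understates their fold changes.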
